A study of Mus musculus with 53 samples.

Results

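The respiratory chain of the mitochondrial inner membrane carries electrons from NADH and succinate through complexes I, II, III and IV to oxygen, with the small protein cytochrome c as the shuttle between complexes III and IV, and ATP synthase (complex V) uses the proton gradient this builds. Most subunits are encoded in the nucleus and imported, and a minority, not analysed here, by mitochondrial DNA. Embryonic stem cells draw strongly on glycolysis beside this chain. The genes described here were taken by name: those starting with Ndufa, Ndufb, Ndufc, Ndufs, Ndufv, Uqcr or Atp5, those starting with Cox and a number from 4 to 8 followed by a letter or nothing, Sdha to Sdhd, and Cycs. The rule found 85 of the 11647 genes of the bulk table and 91 of the 23235 genes of the single-cell table. In the larger set, 38 are complex I names, 4 complex II, 8 complex III, 1 cytochrome c, 18 complex IV and 15 ATP synthase. The remaining 7 (Ndufaf1 to Ndufaf4, Cox4nb, Atp5s and Atp5sl) share a name stem but are not chain subunits. The grouping is by name: Ndufa4 is counted with complex I, although its protein is known as a subunit of cytochrome c oxidase. The Ndufaf genes encode complex I assembly factors and Cox4nb a protein of the endoplasmic reticulum. The 6 genes found in the single-cell table and not in the bulk table were Atp5g2, Ndufs5, Cycs, Cox6a2, Cox8b and Cox8c.

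All samples came from R1 mouse embryonic stem cells, grown in serum with the cytokine LIF and no feeder cells. Bulk RNA was sequenced from Tbx3 null cells (N/N), heterozygous cells (+/N) and wild-type cells (+/+), and from wild-type cells with a short hairpin RNA against Tbx3 (shTbx3) or luciferase (shLuc), 1 library each. Tbx3 is a T-box transcription factor, and its own level was 15.1 FPKM in N/N, 22.49 in +/N and 44.4 in +/+, and 5.09 in shTbx3 against 13.8 in shLuc (FPKM, fragments per kilobase of transcript, scaled to the fragments of the library). Sites bound by biotin-tagged Tbx3 came from N/N cells carrying that protein and the BirA ligase. Another table held 45 single R1 cells, sorted for the surface antigen SSEA1 and against the dead-cell dye DAPI, and 1 pool of such cells. The labels do not say whether N/N and +/N are single clones, nor what was removed from Tbx3, so its transcript level in N/N does not check the genotype. As each bulk group is 1 library, no p-value is given, and a difference has no replicate check; the members are set beside all genes of the same comparison.

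Markers of other cells moved with the groups. The lowest of the 6 stem cell markers in any bulk library was at 59.9 FPKM. The summed FPKM of 6 primitive endoderm markers was 3.96 in N/N and 6.02 in +/N against 24.7 in +/+, that of 6 fibroblast markers 91.7 and 95.7 against 43.1, and none of the fibroblast markers was below 1 FPKM in these 3 libraries. In shTbx3, the 4 measured primitive streak markers summed to 70.9 FPKM against 2.33 in shLuc, and 5 B cell and antigen presentation markers to 6.71 against 86.4. Small RNA genes held 20.8% of the summed FPKM in N/N, 22.7% in +/N, 19.6% in +/+, 5.43% in shTbx3 and 7.24% in shLuc. The part of these differences in the values below was not tested, and fewer cells of a type cannot be told apart from less RNA per cell in bulk samples.

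Many genes of this group are known targets of the nuclear respiratory factors NRF1 and GABP, an ETS-family factor also called NRF2, and of YY1 (background from mammals in general). The promoters below show these letters in members of complexes I, III and IV, cytochrome c and ATP synthase, and in the 1 member whose whole promoter window lay inside a Tbx3 site (Ndufb6). Each runs 5′ to 3′ in the direction of the gene from 250 bases before to 50 bases after the start, from RefSeq on build GRCm38.p6, with matches in capitals: GCGCATGCG or GCGCANGCG (NRF1) and CCGGAAG (ETS), each on either strand. They lie at chr17:56717512-56717811 (plus strand) for Ndufa11, chr10:80406772-80407071 (minus) for Uqcr11, chr6:50566520-50566819 (minus) for Cycs, chr5:115348909-115349208 (minus) for Cox6a1, chr5:108434350-108434649 (minus) for Atp5k and chr4:40279372-40279671 (minus) for Ndufb6.
Ndufa11: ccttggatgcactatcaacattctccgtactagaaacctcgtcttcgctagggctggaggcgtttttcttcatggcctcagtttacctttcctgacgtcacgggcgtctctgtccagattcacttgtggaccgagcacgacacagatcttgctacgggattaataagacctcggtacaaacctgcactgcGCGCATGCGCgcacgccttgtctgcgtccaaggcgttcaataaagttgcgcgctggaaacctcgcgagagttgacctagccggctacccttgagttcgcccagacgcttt
Uqcr11: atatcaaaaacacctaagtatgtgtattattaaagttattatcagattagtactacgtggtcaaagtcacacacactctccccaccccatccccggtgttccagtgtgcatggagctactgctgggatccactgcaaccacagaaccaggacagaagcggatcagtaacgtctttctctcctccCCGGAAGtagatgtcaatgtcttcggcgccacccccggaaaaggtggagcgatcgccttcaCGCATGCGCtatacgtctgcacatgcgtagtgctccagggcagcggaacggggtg
Cycs: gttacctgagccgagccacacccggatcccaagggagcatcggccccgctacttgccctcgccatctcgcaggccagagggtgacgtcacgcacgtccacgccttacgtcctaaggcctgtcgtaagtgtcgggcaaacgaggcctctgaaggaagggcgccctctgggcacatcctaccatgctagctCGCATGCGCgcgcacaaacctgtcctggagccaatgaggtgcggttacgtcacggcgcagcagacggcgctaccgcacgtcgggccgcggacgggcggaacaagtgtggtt
Cox6a1: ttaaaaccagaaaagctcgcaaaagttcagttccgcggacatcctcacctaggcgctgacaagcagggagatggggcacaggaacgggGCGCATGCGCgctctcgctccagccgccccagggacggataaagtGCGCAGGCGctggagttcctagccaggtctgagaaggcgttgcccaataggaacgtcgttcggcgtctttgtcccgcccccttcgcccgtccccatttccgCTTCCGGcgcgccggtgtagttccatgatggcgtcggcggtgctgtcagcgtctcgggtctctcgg
Atp5k: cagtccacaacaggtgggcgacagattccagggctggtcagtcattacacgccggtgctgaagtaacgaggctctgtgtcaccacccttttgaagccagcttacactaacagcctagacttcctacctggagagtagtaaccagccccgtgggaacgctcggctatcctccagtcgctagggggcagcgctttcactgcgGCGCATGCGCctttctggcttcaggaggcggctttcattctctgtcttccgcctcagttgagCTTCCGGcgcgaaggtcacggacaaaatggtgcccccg
Ndufb6: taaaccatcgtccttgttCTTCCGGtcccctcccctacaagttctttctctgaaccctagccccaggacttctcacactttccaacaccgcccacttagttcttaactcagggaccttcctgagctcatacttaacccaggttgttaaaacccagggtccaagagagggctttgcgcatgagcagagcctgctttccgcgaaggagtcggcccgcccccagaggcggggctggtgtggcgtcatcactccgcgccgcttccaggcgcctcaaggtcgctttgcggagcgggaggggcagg

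In Ndufa11, which encodes an accessory subunit of complex I, the NRF1 letters began at positions -60 and -59 from the start, since the 9 letters and their reverse complement overlap in a palindrome. Cycs, the gene of cytochrome c, held 1 NRF1 match at -61. Uqcr11, a small subunit of complex III, had NRF1 letters at -5 and ETS letters at -66. Cox6a1, of complex IV, held the palindrome at -162 and -161, a match with the free base at -117 and ETS letters at -16, and Atp5k, subunit e of ATP synthase, the palindrome at -50 and -49 and ETS letters at position 12 after the start. A RefSeq promoter was found for 75 of the 91 members. GCGCATGCG was present in 10 of them (13.3%), against 4.52% of 8211 genes of the bulk table with a promoter in the same source, and GCGCANGCG, which includes it, in 22 (29.3%) against 16.2%. The YY1 letters AAGATGGCG, searched on both strands as well, were in 8 (10.7%) against 3.81%. CCGGAAG was in 17 (22.7%) against 20.8%, so its share lay near that of the table. The mean G and C content of the members' windows was 57.9%, below the 61.3% of the table. The T-box letters GGTGTGA, a search added after the data had been seen, were in 0 of 75 members and in 4.03% of the table. A match is a string of letters and was not tested as a binding site.

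The members were among the more abundant transcripts of these cells. Together they held 3.44% of the summed FPKM of the bulk table in N/N, 3.34% in +/N, 3.64% in +/+, 4.05% in shTbx3 and 4.30% in shLuc, and with the small RNA genes left out 4.35%, 4.33%, 4.52%, 4.28% and 4.63% in the same order. Their median level was 88.5 FPKM in N/N, 79.98 in +/N, 86.5 in +/+, 102.1 in shTbx3 and 108.7 in shLuc, while the median of all genes was 9.13 to 10.6 FPKM. A mean over the 5 libraries of at least 100 FPKM was found for 41 of the 85, and under 10 FPKM for 5.

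**Figure D1:**
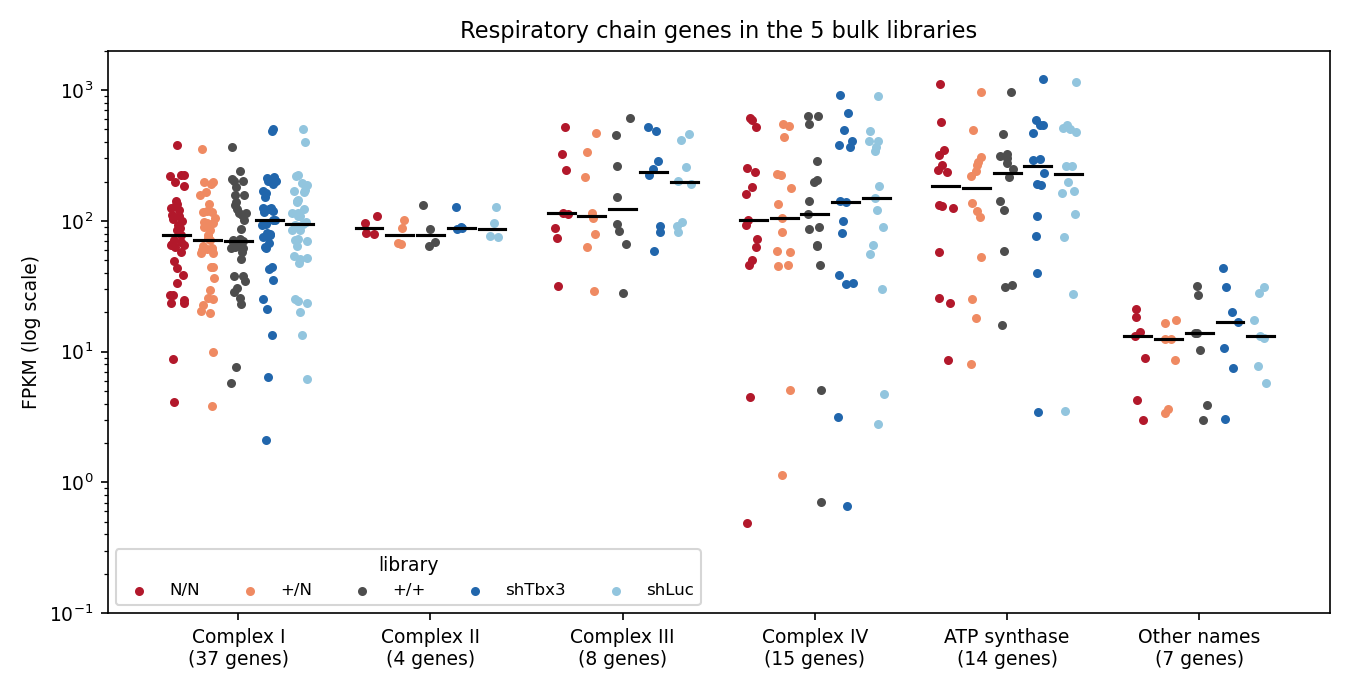
FPKM (log scale) of the 85 members in the 5 bulk libraries, by complex; each point is 1 gene and each bar the median. Most members lie between 10 and 1000 FPKM, and a few complex I, complex IV and ATP synthase genes lie far below the others of their complex.

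In complex I, the NADH dehydrogenase, the highest mean level belonged to the accessory subunit Ndufa7 at 382 FPKM in N/N, 357 in +/N, 366 in +/+, 503 in shTbx3 and 401 in shLuc. The lowest was Ndufb4 at 8.80, 9.88, 5.79, 2.10 and 6.21 FPKM in the same libraries. The core subunits given here lay between these by their mean. Ndufs7 was at 121.9 FPKM in N/N, 104.7 in +/N, 114.5 in +/+, 169.6 in shTbx3 and 123.9 in shLuc, whereas Ndufs3 stayed at 19.95 to 25.8 FPKM in all 5. Of the 26-base windows of the transcript, 44.9% in Ndufb4 and 61.8% in Ndufs3 occurred again outside the gene in the mm9 genome. In the coding part alone the shares were 100% and 72.2%, so the levels of Ndufb4 and Ndufs3 are uncertain. Ndufs1 (25.4 to 50.9 FPKM), Ndufs8 (47.3 to 69.3) and Ndufv1 (71.5 to 114) are given by their range. In complex II, succinate dehydrogenase, the flavoprotein Sdha (81.3, 66.1, 68.8, 89.1 and 77.1 FPKM in N/N, +/N, +/+, shTbx3 and shLuc), iron-sulphur subunit Sdhb, and membrane anchors Sdhc and Sdhd all lay between 64.7 and 132 FPKM.

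In complex III, Uqcr10 had the highest mean over the 5 libraries, at 526 FPKM in N/N, 474 in +/N, 607 in +/+, 522 in shTbx3 and 458 in shLuc, and Uqcrb the lowest mean, at 31.7, 28.9, 27.99, 58.5 and 90.9 FPKM. The core proteins Uqcrc1 (203 to 265 FPKM) and Uqcrc2 (62.6 to 98.1) and the Rieske iron-sulphur protein Uqcrfs1 (79.98 to 91.8) had means between these. In shLuc Uqcrfs1, at 82.8 FPKM, was below Uqcrb. Of the 26-base windows of Uqcrb, 82.7% occurred elsewhere in the genome, so its level is uncertain. In complex IV, cytochrome c oxidase, Cox4i1 had the highest mean, at 611 FPKM in N/N, 439 in +/N, 634 in +/+, 916 in shTbx3 and 894 in shLuc, although Cox8a was above it in +/N (554 FPKM) and +/+ (638 FPKM). Cox7b2 had the lowest mean, at 0.492, 1.15, 0.713, 0.655 and 2.79 FPKM. ATP synthase held the most abundant member of all, the catalytic beta subunit Atp5b, at 1109 FPKM in N/N, 966 in +/N, 964 in +/+, 1208 in shTbx3 and 1158 in shLuc. The alpha subunit Atp5a1, present in the enzyme in the same number of copies as beta, was at 465 to 575 FPKM, and the gamma subunit Atp5c1 at 234 and 261 FPKM in the hairpin libraries against 108 to 126 in the allele libraries.

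Several subunits have a second gene, in some cases tissue-restricted, and these alternative genes differed widely in level. Cox4i2, the oxygen-regulated form found in lung, made up 0.345% to 1.14% of the summed FPKM of Cox4i1 and Cox4i2 in the 5 libraries. Cox6b2, the testis form, made up 40.7% of its pair with Cox6b1 in N/N, 37.3% in +/N, 42.0% in +/+, 19.5% in shTbx3 and 26.1% in shLuc. Cox7a1, the form of heart and skeletal muscle, made up 38.3% of its pair with Cox7a2 in N/N, 30.6% in +/N, 36.2% in +/+, 21.3% in shTbx3 and 30.3% in shLuc. Ndufa4l2, known as a hypoxia-induced relative of Ndufa4, made up 32.1% in N/N, 28.1% in +/N and 22.3% in +/+, but 1.31% in shTbx3 and 4.74% in shLuc. Atp5g1, which together with Atp5g2 and Atp5g3 encodes the same mature c subunit of the proton-carrying ring, made up 2.63% of its pair with Atp5g3 in N/N, 2.77% in +/N, 5.04% in +/+, 6.92% in shTbx3 and 5.43% in shLuc. Of the 26-base windows of Atp5g1, 89.3% occurred elsewhere in the genome, so its share of the pair is uncertain.

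**Figure D2:**
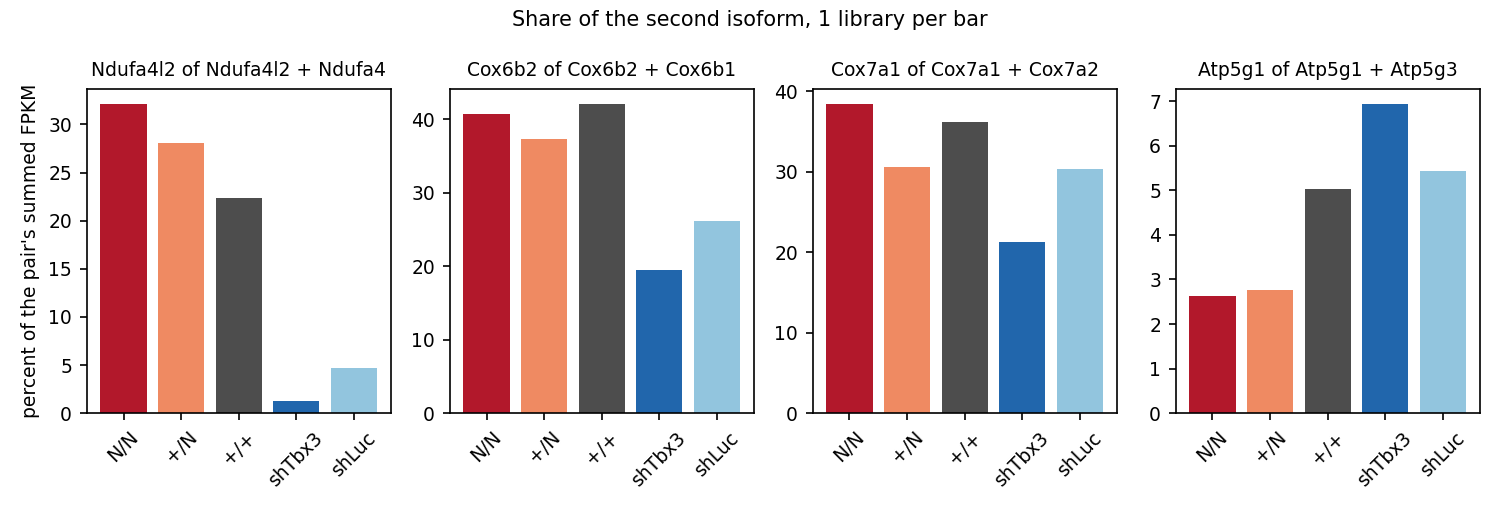
Percent of the summed FPKM of a gene pair held by the alternative gene, 1 library per bar, axes from 0. The Ndufa4l2 share is above 20% in N/N, +/N and +/+ and below 5% in shTbx3 and shLuc, and the Atp5g1 share is lower in N/N and +/N than in +/+. The Atp5g1 share is uncertain, as 89.3% of its 26-base windows occur elsewhere in the genome.

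The hairpin libraries (shTbx3, shLuc) and the allele libraries (N/N, +/N, +/+) read some members at different levels. Between the means of the sets, on the log2(FPKM + 1) scale, 13 of 85 members were at least 2-fold higher in the hairpin set (15.3%, with 6.17% of all genes) and 3 at least 2-fold lower (3.53%, with 4.18% of all genes). Atp5l, subunit g of ATP synthase, read 3.45 and 3.50 FPKM in shTbx3 and shLuc, against 23.5 in N/N, 18.2 in +/N and 32.4 in +/+. Ndufa5 read 78.02 and 91.8 FPKM in shTbx3 and shLuc, against 25.7 to 28.6 in the allele libraries. The labels give reads of 26 or 100 bases without saying which library had which, so the set and the read length cannot be told apart. Several members also share sequence with other places in the genome. Of the 26-base windows of the transcript, 89.9% in Atp5l, 89.3% in Atp5g1, 84.7% in Atp5h, 73.2% in Cox5b and 62.5% in Ndufab1 occurred again outside the gene in the mm9 genome, and of the 100-base windows 83.5%, 67.4%, 34.2%, 37.5% and 28.02%. Members with little shared sequence also differed between the sets: the 26-base share was 2.71% in Ndufa5, which had the most positive difference (log2 1.61), and 0.321% in Ndufa4l2 (log2 -2.20). Among the 10 bulk members with over 50% of 26-base windows elsewhere, 4 read higher by 2-fold or more in the hairpin set and 2 lower by as much, with a median log2 difference of 0.78. Among the 48 with under 10%, 4 were higher and 1 lower, with a median of 0.21. How such reads were assigned was not given, so the levels of these genes are uncertain.

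N/N and +/+ differed little in the group as a whole. On the log2((FPKM + 1) ratio) scale the members' median in N/N against +/+ was -0.05, and that of all genes -0.03; by complex the medians were -0.03 for complex I, 0.18 for complex II, -0.03 for complex III, -0.10 for complex IV and -0.05 for ATP synthase. Of the 84 members at 1 FPKM or more in either library, 1 was at least 1.5-fold higher, where 5.45% of all genes were, and 5 at least 1.5-fold lower (6.47% of all genes), so both shares lay under those of the table. At 2-fold the counts were 0 and 0 (1.37% and 1.92% of all genes). Above 0 were 35 of 84, with 46% of all genes, and above the median of well-expressed genes 38, with 49.5%. The exception upwards was Ndufa4l2, a repressor of complex I activity in hypoxic cells, at 92.9 FPKM in N/N against 57.7 in +/+ (log2 0.68). Lower were Atp5g1 (8.62 against 16.02 FPKM, log2 -0.82), Ndufab1, the mitochondrial acyl carrier protein that is also part of complex I (4.12 against 7.65, -0.76), Cox4nb (18.3 against 31.5, -0.76), Atp5j, coupling factor 6 of ATP synthase (133 against 215, -0.69), and the accessory subunit Ndufb7 (134 against 208, -0.63). The core complex I subunits Ndufs1, Ndufs3, Ndufs7, Ndufs8, Ndufv1 and Ndufv2 lay between -0.17 and 0.09, Sdha to Sdhd between -0.28 and 0.28, and Atp5a1, Atp5b and Atp5c1 at 0.31, 0.20 and 0.05.

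In the heterozygous cells the members read lower on the whole, as did the table. Their median in +/N against +/+ was -0.16, with -0.10 for all genes, and it was -0.04 once the typical gene, taken over those with 5 FPKM in each library, was set to 0 (its own difference was -0.12) and -0.05 when the libraries were rescaled without small RNA genes. Of 85 members 1 was at least 1.5-fold higher (2.44% of all genes) and 8 at least 1.5-fold lower (4.91%), and at 2-fold 0 and 0 (0.698% and 1.21%). Above 0 were 15, with 35% of all genes, and above the median of well-expressed genes 31, with 52.8%. This comparison and the previous one share the +/+ library, so a low or high value there enters both. Atp5g1 was at 7.99 FPKM in +/N against 16.02 in +/+ (log2 -0.92), Cox4nb at 16.5 against 31.5 (-0.89) and Ndufab1 at 3.81 against 7.65 (-0.85). Ndufb7 (118 against 208 FPKM, -0.81), Atp5l (18.2 against 32.4, -0.80), Ndufa12 (19.8 against 34.9, -0.78) and Atp5j (136 against 215, -0.66) followed, with the assembly factor Ndufaf2 at -0.62. Ndufb4 was the one member past the fold upwards (9.88 against 5.79 FPKM, 0.68), and Ndufa4l2 was at 77.7 against 57.7 (0.42). Cox4i1, whose neighbour on the opposite strand is Cox4nb, was at 439 FPKM in +/N against 634 in +/+ (-0.53) and at 611 in N/N (-0.05).

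Between N/N and +/N, which do not use the +/+ library, no member was 1.5-fold apart. The counts were 0 of 85 higher and 0 lower, where 0.977% and 0.801% of all genes were, and at 2-fold 0 and 0 (0.317% and 0.308%). The members' median was 0.13, that of all genes 0.07, and 72 of the 85 were above 0 with 68.1% of all genes, and 56 above the median of well-expressed genes, with 44.5%. Rescaled without small RNA genes the median was -0.0031. The most positive differences were Cox4i1 (611 FPKM in N/N against 439 in +/N, 0.48), Cox7a1 (63.6 against 46.3, 0.45) and Ndufv3 (222 against 166, 0.41), and the most negative Cox7b2 (0.492 against 1.15, -0.52) and Cox7c (45.6 against 58.1, -0.34).

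**Figure D3:**
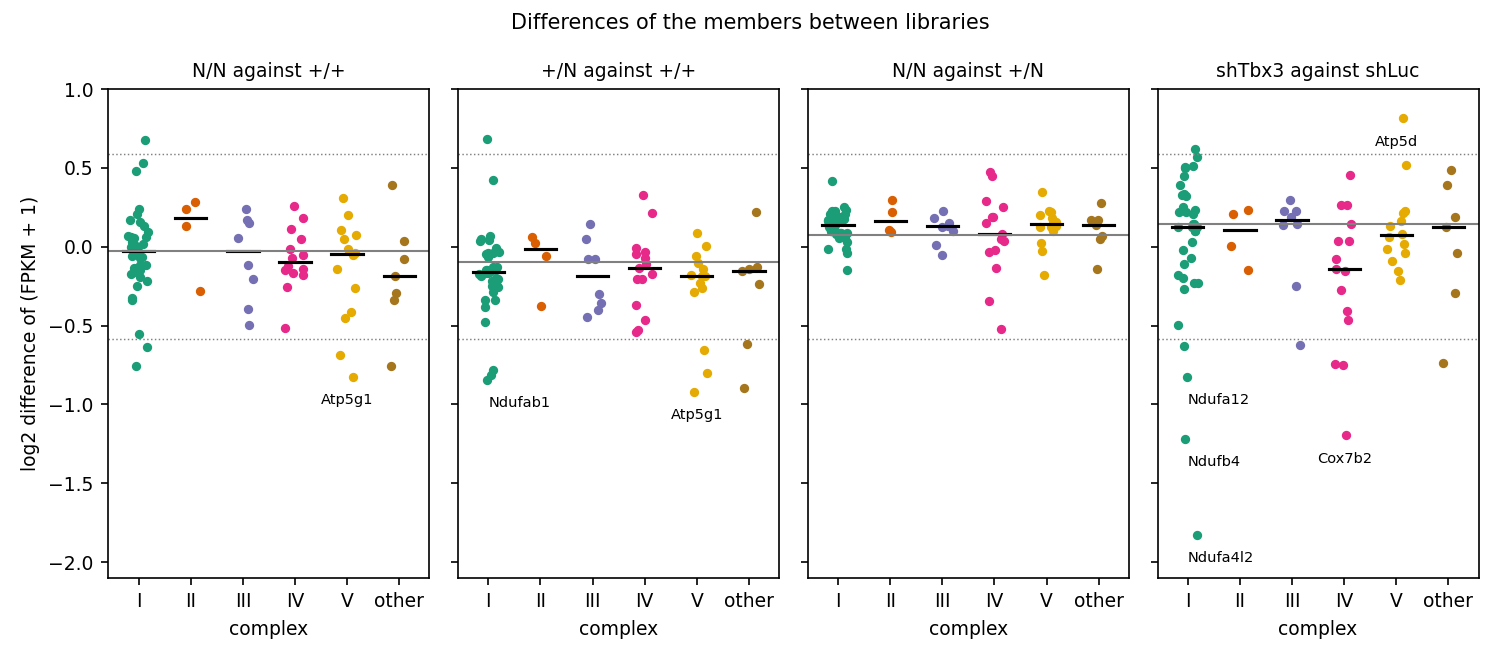
Log2 difference of (FPKM + 1) for each member in the 4 comparisons, by complex; black bars are medians, the grey line is the median of all genes and dotted lines mark 1.5-fold. Members sit around the median of all genes in each panel, and the widest spread, -1.83 to 0.81, is in shTbx3 against shLuc.

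In shTbx3 against shLuc some single members were lower while the median stayed near that of all genes. The members' median in shTbx3 against shLuc was 0.12, with 0.14 for all genes, and it was -0.04 after setting the median of genes at 5 FPKM to 0 and -0.09 after rescaling without small RNA genes. Of 85 members 2 were at least 1.5-fold higher, where 12.7% of all genes were, and 9 at least 1.5-fold lower, where 3.73% were. At 2-fold the counts were 0 higher (2.81% of all genes) and 3 lower (0.987%). Above 0 were 52 members, with 64.5% of all genes, and above the median of well-expressed genes 32, with 48.2%. Ndufa4l2 was at 6.40 FPKM in shTbx3 against 25.3 in shLuc (-1.83), Ndufb4 at 2.10 against 6.21 (-1.22) and Cox7b2 at 0.655 against 2.79 (-1.20). The next were Ndufa12 (13.3 against 24.4 FPKM, -0.83), Cox7a1 (38.5 against 65.4, -0.75), Cox7c (33.1 against 56.2, -0.74), Atp5s (3.03 against 5.73, -0.74), the iron-sulphur subunit Ndufv2 (62.4 against 97.2, -0.63) and Uqcrb (58.5 against 90.9, -0.63). Of the 26-base windows, 82.7% in Uqcrb, 72.8% in Cox7c, 44.9% in Ndufb4 and 36.0% in Ndufa12 occurred elsewhere in the genome, so these levels are uncertain. The shares were 0% in Cox7a1, 0.890% in Atp5s and 0.924% in Ndufv2. Higher were Atp5d, the delta subunit of ATP synthase (298.7 against 169.6 FPKM, 0.81), and Ndufab1 (21.2 against 13.4, 0.62). Complex IV stood lowest by its median (-0.14), with 3 of 15 members at least 1.5-fold lower and none higher. The 3 were Cox7a1, Cox7c and Cox7b2, the last at low levels in both libraries. The median was 0.17 for complex III, 0.12 for complex I, 0.10 for complex II and 0.07 for ATP synthase. Without the members that have 10% or more of their 26-base windows elsewhere, an alternative chosen after seeing the data, 5 of 48 were lower and 1 higher. The sign of no member past 1.5-fold in any comparison turned under either rescaling.

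Genes around the chain gave a background for these values. Of the 18 TCA cycle and pyruvate dehydrogenase genes, 0 were 1.5-fold apart in any comparison, with medians of 0.11 in N/N against +/+, -0.08 in +/N against +/+, 0.19 in N/N against +/N and 0.16 in shTbx3 against shLuc. Of 16 glycolysis genes, 5 passed 1.5-fold upwards and 1 downwards in N/N against +/+ (median 0.22), where 5.45% of all genes were higher and 6.47% lower. Among them were the aldolase Aldoc (67.9 against 36.8 FPKM, 0.86), the kinase Pgk1 (28.6 against 16.7, 0.75) and the isomerase Gpi1 (185 against 113, 0.72), while Pgam1 was lower (18.8 against 30.2, -0.66). In +/N against +/+ 0 glycolysis genes were higher and 1 lower (median 0.07), with 2.44% and 4.91% of all genes, and in shTbx3 against shLuc 0 higher and 1 lower (median -0.03), with 12.7% and 3.73%. The list of 29 assembly factors includes Ndufaf1 to Ndufaf4, which are also counted among the members. Of the 29, 1 was higher and 0 lower in N/N against +/+, where 5.45% and 6.47% of all genes were. The higher gene was the copper chaperone Sco2, at low levels (5.10 against 2.82 FPKM, 0.67). In +/N against +/+ 0 were higher and 2 lower, Ndufaf2 (17.3 against 27.1 FPKM, -0.62) and Atpaf1 (2.996 against 5.08, -0.60), where 4.91% of all genes were lower. In shTbx3 against shLuc 2 were higher and 0 lower, Sco2 (5.93 against 2.18 FPKM, 1.13) and Ecsit (44.7 against 23.9, 0.88), where 12.7% of all genes were higher. Of 76 mitochondrial ribosomal protein genes, 0 passed 1.5-fold in any of the 3 allele comparisons and 4 were higher in shTbx3 against shLuc, a smaller share than the 12.7% of all genes. Of 85 cytosolic ribosomal protein genes, 12 were higher and 4 lower in N/N against +/+ (5.45% and 6.47% of all genes). They numbered 4 and 1 in +/N against +/+ (2.44% and 4.91%), and 6 and 10 in shTbx3 against shLuc (12.7% and 3.73%). Of 24 genes listed for mitochondrial membrane import, 4 were higher and 0 lower in shTbx3 against shLuc (12.7% and 3.73% of all genes). In +/N against +/+, 0 of 22 were higher and 1 lower (2.44% and 4.91% of all genes). In N/N against +/+, 0 of 22 were higher and 0 lower (5.45% and 6.47%). Among the regulators, Nrf1 was at 20.3, 18.8, 19.6, 27.0 and 21.0 FPKM in N/N, +/N, +/+, shTbx3 and shLuc, Gabpa at 18.4, 19.2, 20.4, 21.7 and 31.3, and Yy1 at 37.1, 36.5, 51.6, 41.2 and 36.7.

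Tbx3 sites lay near members about as often as near other genes. Of 91 members 13 (14.3%) had 1 of the 3078 sites within 20 kb of their start, against 14.9% of 11094 genes of the bulk table placed on the mm9 annotation. Within 5 kb there were 4 (4.396%, with 7.43% of the table), within 1 kb 3 (3.30%, with 5.21%) and within 50 kb 20 (21.98%, with 26.5%). Sites at or above the median score lay within 20 kb of 5 members (5.49%, with 7.48%). A site covered the annotated start of Ndufa13 at chr8:72426338-72427611 (deposited score 77.5) and that of Ndufb6 at chr4:40226161-40226814 (score 58.4), both on mm9; the whole Ndufb6 promoter shown above lay inside its site, while the RefSeq start of Ndufa13 lies downstream of the annotated one and its promoter window did not overlap the site. The start of Tssk6, 255 bp from the same site, is close by. A site at chr16:84836351-84836759 (score 90.3) lay 481 bp upstream of Atp5j and 1181 bp from the start of Gabpa. The site near Uqcrh was 3481 bp downstream of its start. The other 9 members, at 5282 to 19832 bp, were Ndufaf4, Uqcr11, Ndufv3, Cox7a1, Ndufa2, Cox4i2, Cox6b1, Ndufs4 and Ndufa7, and for 6 of these the start of another gene was nearer to the site. Scores ran from 50.01 to 791.25 with a median of 76.7 over all sites. Ndufb6 was at 103 FPKM in N/N, 96.7 in +/N and 123 in +/+, and 204 in shTbx3 against 187 in shLuc; Ndufa13 was at 49.2, 44.5, 62.3, 74.996 and 64.7 FPKM in the same order. Neither was 1.5-fold apart in any comparison. Atp5j, the other member with a site within 1 kb, was at 133 FPKM in N/N, 136 in +/N and 215 in +/+, and so at least 1.5-fold lower in both comparisons that share the +/+ library (-0.69 and -0.66), and at 187 in shTbx3 against 199 in shLuc (-0.09).

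Detection of the members in single cells ran from 0% to 100% of cells. The median member was at 1 FPKM or more in 80% of the 45 cells, and 40 or more cells held 36 of the 91. For the 11678 genes that reached 1 FPKM in the pool the median was 8.89%, and for the 85 members among them it was 82.2%. Members also have higher pool levels: among genes at 50.3 to 285 FPKM in the pool, the middle range of the members, the median was 75.6% for 45 members and 44.4% for 1870 genes. The cells are of 1 sort and count as 1 sample, intervals cover counting error only, and the single-cell table was scaled separately from the bulk table. The same 6 stem cell markers summed to a median of 3179 FPKM per cell (853 to 7135). The other 4 marker sets each summed to a median of 0. The highest sum in a cell was 2.82 FPKM for endoderm and 9.36 for fibroblasts. It was 339 FPKM for primitive streak, and 137 for B cell and antigen presentation markers.

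In all 45 cells were 10 members, which allows shares down to 92.1% (exact Clopper-Pearson 95% interval): Ndufa4, Ndufa7 and Ndufa11 of the complex I names, Uqcr10 and Uqcrq of complex III, Cox4i1, Cox5a, Cox6c and Cox7b of complex IV, and Atp5b. Cox7b never fell below 45.1 FPKM (median 395, highest 1508). Atp5b ran from 20.1 to 2544 FPKM with a median of 537, against 1843 in the pool. At the other end, Cox7b2 and the heart and muscle forms Cox6a2 and Cox8b were at 1 FPKM in 0 of 45 cells, which leaves shares of such cells up to 7.87%. Atp5g2 was also in 0 cells, but no limit is drawn for it, since 100% of its windows occur elsewhere in the genome. Atp5sl, Ndufaf1 and Cox8c were in 1 cell each. Ndufa4l2 was in 2 cells (4.44%, 0.543 to 15.1%), with a mean of 0.162 FPKM against 16.6 in the pool.

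**Figure D4:**
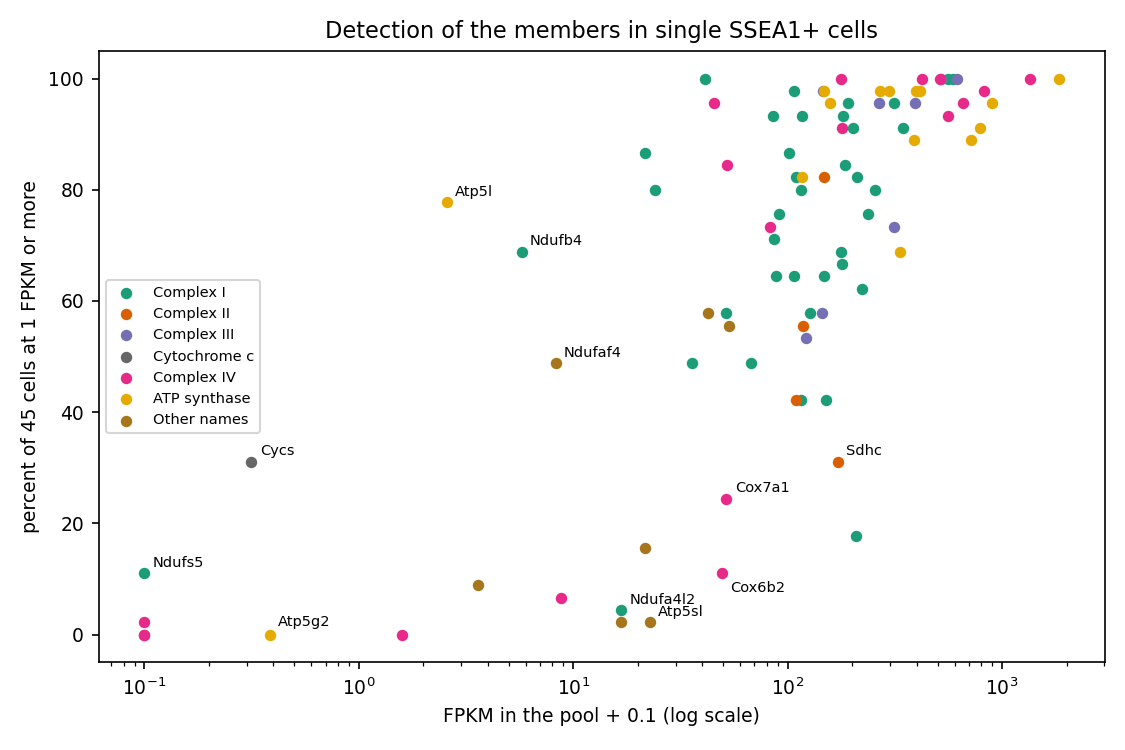
Percent of the 45 single cells at 1 FPKM or more for each of the 91 members, against its FPKM in the pool plus 0.1 (log scale), coloured by complex. Most members above 100 FPKM are in over 50% of cells; Sdhc (31.1%), Sdha, Ndufa9 and Ndufv1 are among those below, and Atp5l (77.8%) and Ndufb4 (68.9%) lie high for their pool level.

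By complex, the median share of cells was 95.6% for complex III and for ATP synthase, 87.8% for complex IV, 77.8% for complex I and 48.9% for complex II. In complex II Sdhb was in 82.2% of cells (67.9 to 92%), Sdhd in 55.6%, Sdha in 42.2% and Sdhc in 31.1% (18.2 to 46.6%). Of the alternative genes, Cox7a1 was in 11 cells (24.4%), Cox6b2 in 5 (11.1%) and Cox4i2 in 3 (6.67%), while their partners Cox7a2, Cox6b1 and Cox4i1 were in 41, 42 and 45. Cox6b2 averaged 15.3 FPKM over the cells against 49.2 in the pool. Shorter transcripts were detected more often: among the 79 members at 10 FPKM or more in the pool, the median was 95.6% of cells for 25 transcripts of up to 600 bases, 85.6% for 22 longer than 600 and up to 1000 bases, and 67.8% for 32 over 1000. The pool levels of these bins were 257, 204 and 115 FPKM (medians), so length and level moved together. Over these genes Spearman's rho of the share of cells was 0.62 with the pool level and -0.39 with length, as a description.

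The cells and the pool gave different orders for some genes. Mean levels over the cells were above the pool for 61 of 91 members. The same share over all genes was not computed, so the count does not set the members apart from other genes. Of the 15 ATP synthase genes 7 were below the pool: the core genes Atp5a1 and Atp5b averaged 251 and 630 FPKM over the cells against 718 and 1843 in the pool, and Atp5g3, Atp5k, Atp5d, Atp5e and Atp5g2 were the others. Atp5l was in 35 cells and averaged 13.9 FPKM over all of them, against 2.47 in the pool. Cycs was in 14 cells (mean 3.04 FPKM), against 0.216 FPKM in the pool, Atp5g2 in 0 cells, against 0.284 FPKM in the pool, and Ndufs5 in 5 cells while listed at 0 in the pool. Of their 26-base windows, 42.4% in Cycs, 100% in Atp5g2 and 85.8% in Ndufs5 occurred again elsewhere in the genome. In the coding part alone the shares were 100%, 100% and 83.1% in that order. The part of this sharing in the low values was not tested.

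Each cell gave the members 3.4% to 10.5% of its summed FPKM, with a median of 4.78%, against 4.09% in the pool. By complex the medians over cells were 1.88% for complex I (pool 1.15%), 0.0867% for complex II (pool 0.107%), 0.708% for complex III (0.494%), 1.02% for complex IV (0.977%) and 0.930% for ATP synthase (1.33%). The highest cell, cell 49, had 10.5%, and the next 8.53%. In cell 49 Cox6b1 stood at 6241 FPKM, Cox6a1 at 5977, Uqcr10 at 4463 and Ndufb8 at 4319, while the 4 complex II genes summed to 0. That cell also had the lowest relative depth of all, 0.137 on a scale where cell 4 is 1 and the cells run up to 1.55. Without cell 49, left out after seeing the data, the median over cells was 4.70%. Cells held 46 to 72 members at 1 FPKM or more (median 61), and this number followed the number of all genes detected (rho 0.83 over the 45 cells). With relative depth, rho was 0.06 for the number of members and -0.05 for their share of the summed FPKM, and the share had rho -0.53 with the number of all genes detected, all as descriptions. The first 23 cell columns had a median relative depth of 1.18 and a median share of 4.41%, and the last 22 columns 0.606 and 4.95%; the median member was in 91.3% of the first 23 cells and 72.7% of the last 22.

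**Figure D5:**
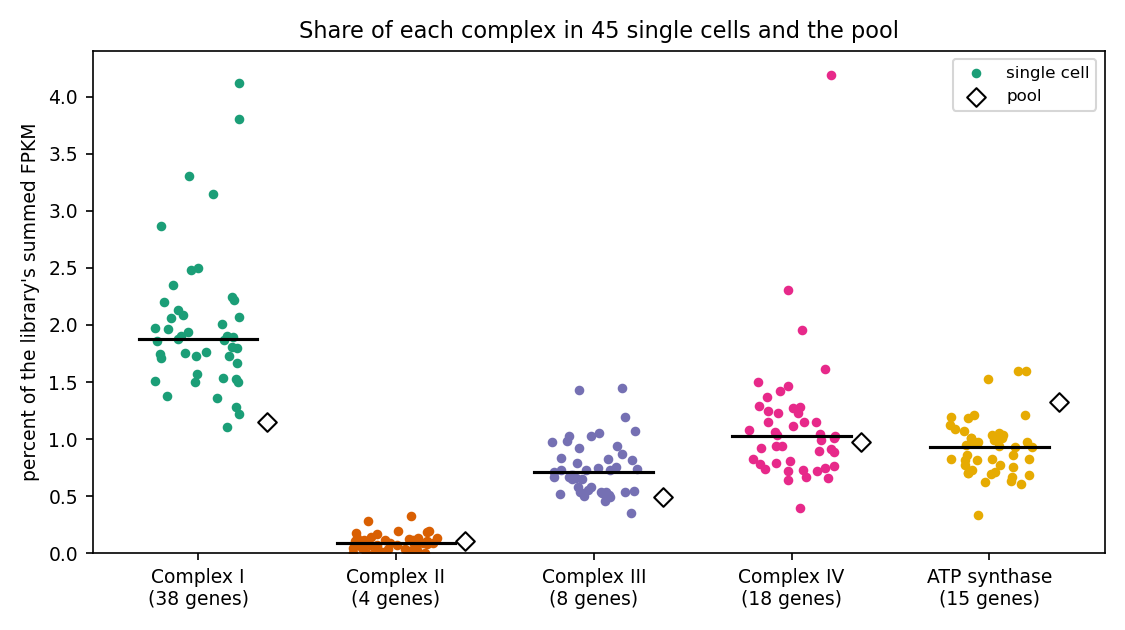
Percent of a library's summed FPKM held by each complex in 45 single cells (points, with the median as a bar) and in the pool (diamond, at the right of each column). The pool lies near the bottom of the cells for complex I (1.15%) and above the median of the cells for ATP synthase (1.33%).

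Pairs of members showed little correlation across cells. Over the 68 members detected in 50% of cells or more, the median Spearman rho of all 2278 pairs was 0.01, with 0.02 for the 1557 genes passing the same filter. Pairs within a complex had a median of 0.02 and pairs between complexes 0.0094. Complex IV had the most positive median, 0.05 over 55 pairs, and ATP synthase had 0.0053 over 91. Above 0 were 69.1% of the complex IV pairs, with 55.7% of the pairs of all genes passing the filter. The complex IV pairs are formed by 11 genes, so they do not count as independent. The most positive pairs were Ndufa1 with Ndufa8 (0.51), Cox7c with Ndufa5 (0.50) and Atp5b with Ndufc2 (0.49), and the most negative Ndufa11 with Uqcrc2 (-0.50), Atp5e with Atp5g3 (-0.47) and Atp5o with Ndufa6 (-0.45). Such values are the extremes of many pairs, all genes of a cell share its depth, and no p is given.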

How the data were processed

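The members and all gene lists were chosen with earlier results of these data known. Bulk and single-cell values are FPKM deposited by the authors; per the submitters' processing notes TopHat, Cufflinks, Cuffdiff and Cuffnorm were used on build mm9, and Bowtie 1.0 and HOMER for the Tbx3 sites. The sites carry a score deposited by the authors, used here only to describe and filter sites; the cells that carry BirA alone were not used. FPKM hold no read depth for the bulk libraries, so no counting interval is given for them.

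Differences were computed as log2((FPKM + 1) ratio) over genes that reached 1 FPKM in one of the pair. Well-expressed genes are those with 5 FPKM in each of the pair. A gene was counted from 1.5-fold, with 2-fold as an alternative, and with 1 library per group there is no test. Replicates were not available, so nothing is known of the spread between cultures. Of the bulk genes, 185 are listed at 0 in some library, none of them a member.

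A cell counted as having a gene at 1 FPKM or more, with exact Clopper-Pearson 95% intervals for counting error. Doublets were not looked for. The relative depth of a cell came from its low FPKM values, set beside those of cell 4. Over genes above 0 and below 1 FPKM in both cells, it is the inverse of the most common ratio. Transcript windows of 26 and 100 bases were searched in mm9. Genes were named by a rule: the highest and lowest of each complex, members past 1.5-fold, alternative gene pairs, core subunits, extremes of detection and members near sites; others were chosen after their values were seen. Tables were handled with Python 3.11.15, numpy 2.4.6, pandas 2.3.3 and scipy 1.17.1. The fold counts, the relative depth and the 26-base window search were tested on data with planted values. The other steps were not tested in this way. The values of 1 member are not reported here.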

Additional observations from a re-analysis of the deposited data

Results flagged for a closer look

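For 3 members the differences passed 1.5-fold in opposite directions in an allele comparison and in the hairpin comparison; others had opposite signs without passing it in both. With 1 library per group, the difference between them was not tested. Ndufa4l2 had a log2 difference of 0.68 in N/N against +/+ and of -1.83 in shTbx3 against shLuc. Ndufab1 had -0.76 in N/N against +/+ and -0.85 in +/N against +/+, which share the +/+ library, and 0.62 in shTbx3 against shLuc. Ndufb4 had 0.68 in +/N against +/+ and -1.22 in shTbx3 against shLuc. Of the 26-base windows, 0.321% in Ndufa4l2, 62.5% in Ndufab1 and 44.9% in Ndufb4 occur elsewhere in the genome, and the part of this was not tested.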

How the results depend on the processing

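No paired analysis was possible because each bulk group has 1 library. In N/N against +/+, the count of higher members was 2 with a pseudocount of 0.1 and 0 at 2-fold, and that of lower members 0 at 2-fold and 2 among the members with under 10% of 26-base windows elsewhere (47 in this comparison and 48 in the others), an alternative chosen after seeing the data. In +/N against +/+, higher members numbered 2 with a pseudocount of 0.1 and 0 with a pseudocount of 5, at 2-fold and among the 48, and lower members 0 at 2-fold and 3 among the 48; the median was -0.0432 when centred on genes at 5 FPKM and -0.0510 without small RNA genes. In N/N against +/N, lower members numbered 1 with a pseudocount of 0.1, when centred and without small RNA genes, and the median was -0.00307 without small RNA genes. In shTbx3 against shLuc, higher members numbered 1 with a pseudocount of 5, when centred, without small RNA genes and among the 48, and 0 at 2-fold, lower members 3 at 2-fold and 5 among the 48, and the median was -0.0367 when centred and -0.0875 without small RNA genes. The median share of cells was 91.3% in the first 23 cell columns. Members near a site numbered 4 within 5 kb, 20 within 50 kb and 5 for sites at or above the median score. The causes were not tested. Of the alternative values, 92 stayed within the limits set and 29 moved. Bulk depth is unknown.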
